A study of Mus musculus with 24 samples.

Results

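The transcripts of control mouse embryonic stem cells (mESCs) were compared before and after 4 days of retinoic acid (RA), in a study of the ribosome assembly factor gene Rsl24d1. The members are 6 of the 24 RNA-seq libraries of the series, chosen by their labels alone. The labels name a poly-A kit and the study's methods a total RNA kit, which bears on the values of short and ribosomal RNAs. They are 3 libraries of undifferentiated cells (Day 0) and 3 of cells after RA (Day 4). All 6 carried the control siRNA (si-CTL) and had no doxycycline, so that no ectopic Rsl24d1 was induced ("no rescue"). The cells are CGR8, a single established mESC line, grown in serum with LIF at Day 0, and their labels give the vector as empty_vector. Day 4 cells were transfected first and then kept in 10 nM RA in serum. In the study's methods LIF was withdrawn and the cells were replated at low density for this step, and the sample labels name serum and RA only, whereas the series' design text names LIF together with RA. RA, density, time in culture and, if it was withdrawn, LIF cannot be told apart here. Levels were deposited by the authors as log2(TPM + 1). TPM, transcripts per 1000000, is scaled for transcript length and sums to 1000000 in each library. Read depth is unknown, and the number of libraries limits the precision. The labels number the 3 libraries of a day as replicates.

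RA is a small lipid that enters cells, is carried by the CRABP proteins and binds the nuclear receptors RARA, RARB and RARG. These pair with RXR on DNA repeats near target genes such as Rarb, Cyp26a1 and the early Hox genes, and the CYP26 enzymes then degrade RA. In mESCs, LIF acting through STAT3 holds the naive state, whereas autocrine FGF4 acting through ERK prepares its exit. Withdrawal of LIF with RA is a classical way to leave pluripotency, and yields neural or extraembryonic endoderm-like cells depending on dose and culture.

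A gene was called upregulated or downregulated when it passed both an adjusted p below 0.01 (limma, Benjamini-Hochberg over all 16447 genes tested) and a fold change above 1.8, which is 0.848 on the log2 scale. Of these genes, 2469 were called, 15.0% of those tested. Upregulated genes numbered 1114 (6.77%) and downregulated genes 1355 (8.24%). These shares are the background for the counts of every list below. The change passed 4-fold upwards in 110 genes and downwards in 67. The libraries of a day were alike: correlations across genes were 0.9879 to 0.9905 within Day 0, 0.9873 to 0.989 within Day 4 and 0.946 to 0.9516 between days. For 72.5% of all genes tested the libraries of one day all lay above or all below the other, which is the background for every statement below that days did not overlap. Genes called upregulated held 1.78% ± 0.07 of all TPM at Day 0 and 4.37% ± 0.09 at Day 4 (SD, n = 3), and genes called downregulated went from 7.32% ± 0.28 to 3.21% ± 0.02. Since fewer cells of a type and less RNA per cell look the same in bulk RNA, each change below is a change of the mixture.

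The median of all genes was -0.10, and rescaling each library by the median of its ratios moved it by 0.10, to 0.00. That scaling turned the split to 1391 upregulated (58.8% of calls, against 45.1%) and 975 downregulated genes, with 2089 calls in common. Changes are therefore best read against -0.10. Short non-coding RNAs varied strongly between libraries of one day, at 0.045 to 0.173% of TPM at Day 0 and 0.051, 0.318 and 1.163% in Day 4 replicates 1, 2 and 3. Rsl24d1 itself had 135.9 to 148 TPM at Day 0 and 95.9 to 101 TPM at Day 4 in these cells, a difference of -0.52 that did not pass the fold threshold. In the si-Rsl24d1 libraries without rescue it had 32.7 to 37.9 TPM at Day 0 and 89.3 to 99.8 TPM at Day 4.

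**Figure D1:**
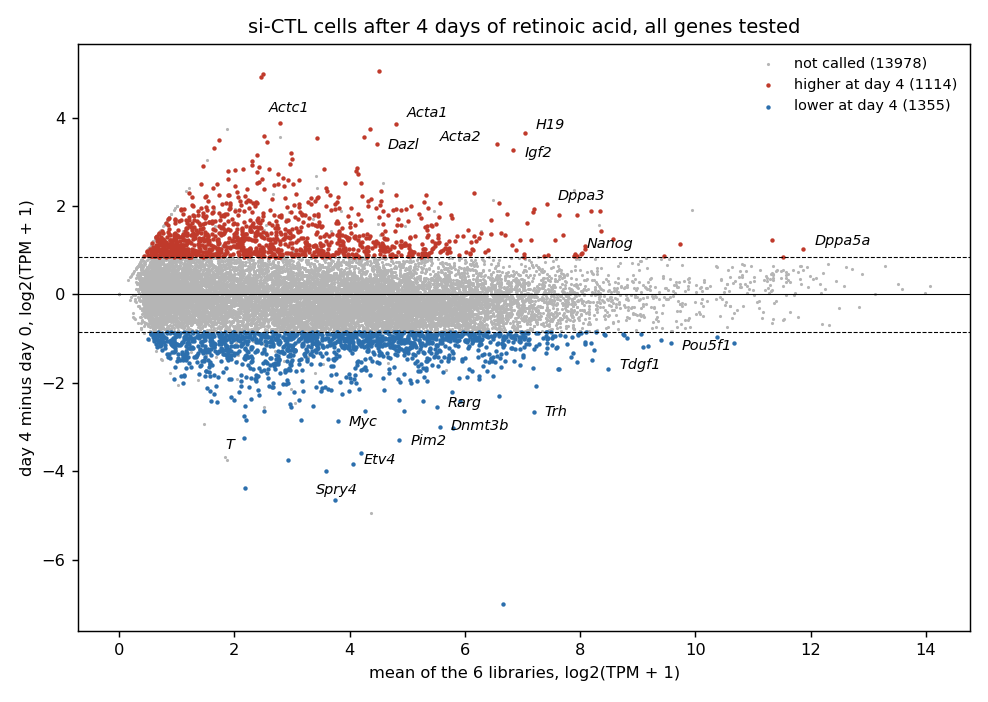
Difference between Day 4 and Day 0 (y axis, log2(TPM + 1)) against the mean of the 6 si-CTL libraries (x axis, log2(TPM + 1)) for the 16447 genes tested. Red points are the 1114 upregulated and blue points the 1355 downregulated genes, and dashed lines mark a fold of 1.8. Above the muscle actins lie only a pseudogene and predicted genes with uneven libraries, and Spry4 and Etv4 lie near the bottom, below which are again predicted genes.

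Of 30 genes of general and naive pluripotency, all tested, 14 were downregulated and 2 upregulated, with a median of -0.78 against -0.10 for all genes (12 and 3 after the median of ratios scaling). The network did not move as a block. Pou5f1, the core POU factor of pluripotency, had 1095, 1118 and 1123 TPM at Day 0 and 515, 547 and 496 TPM at Day 4. It fell by 1.10 on the log2 scale (SE 0.04, adjusted p = 4.2e-15), and its days did not overlap. The largest falls of the list were those of Klf5, a naive-state Krüppel-like factor (-1.86), of Lin28a, an inhibitor of let-7 maturation (-1.84), of Tdgf1, the Nodal co-receptor (-1.69), and of Tet1 (-1.5). Tet1 was also the least even of these, with 133, 95.4 and 85.6 TPM at Day 0.

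The other core factors moved less or the other way. Sox2, the HMG partner of POU5F1, had 292, 282 and 272 TPM at Day 0 and 166, 172 and 172 TPM at Day 4, a difference of -0.72 that stayed under the fold threshold with no overlap of the days. Esrrb (-0.71), Klf4 (-0.84), Tbx3 (-0.58) and Zfp42 (-0.47), all markers of the naive state, likewise had adjusted p-values below 0.01, as 60.9% of all genes did, and too small a fold. Klf2 at -0.85 lay just past it, and its call was lost after the median of ratios scaling (-0.72) or without any of 4 libraries (both replicates 1, Day 0 replicate 2 or Day 4 replicate 3, at -0.82 to -0.85), while Klf4 was called without Day 4 replicate 2 (-0.90) or Day 0 replicate 3 (-0.88). Nanog, the homeobox gatekeeper of the naive state, had 188, 184 and 179 TPM at Day 0 and 323, 321 and 314 TPM at Day 4. All its Day 4 libraries were higher, by 0.79 on the log2 scale (SE 0.04, adjusted p = 5.2e-13), short of the fold threshold and past it after the scaling.

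Both upregulated members are germline-associated genes of the DPPA group. Dppa3 (Stella), which shields the maternal genome from demethylation, had 80.1, 83.6 and 87.0 TPM at Day 0 and 346, 356 and 343 TPM at Day 4, an increase of 2.05 (SE 0.06). Dppa5a, a KH-domain protein, rose from 2513, 2679.5 and 2667 TPM to 5369.7, 5370.0 and 5299 TPM. Its gain in TPM was the largest of any protein-coding gene. The summed TPM of the 30 genes was therefore higher at Day 4 (8550 to 8808) than at Day 0 (7678 to 7795), although more members were downregulated than upregulated.

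**Figure D2:**
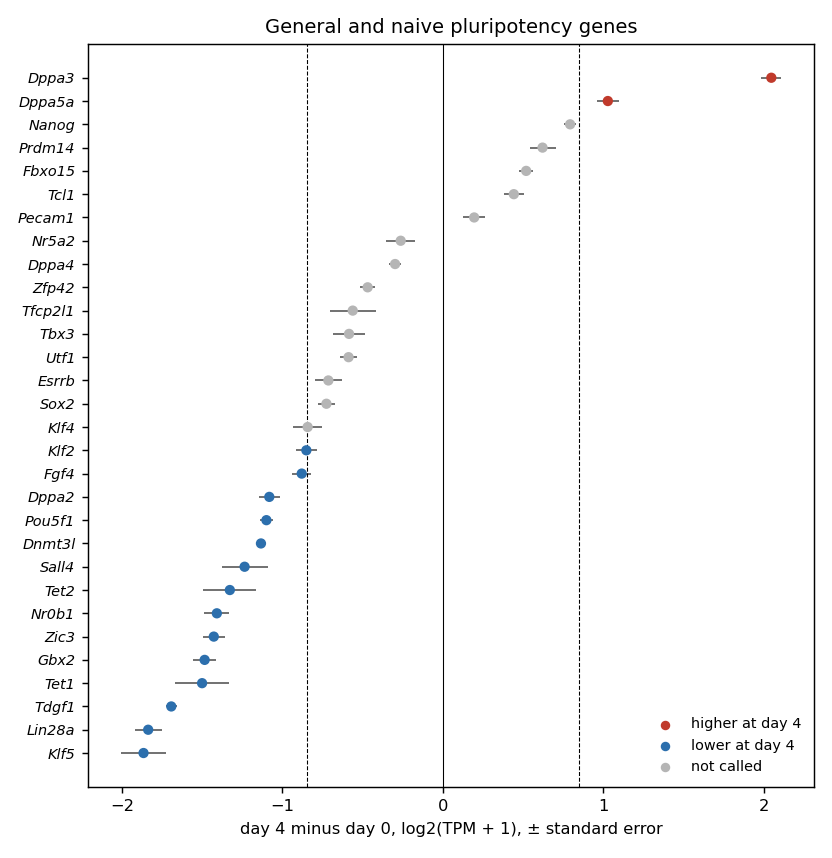
Difference between Day 4 and Day 0 (x axis, log2(TPM + 1), points, with the standard error as bars) for the 30 pluripotency genes (y axis). Dashed lines mark a fold of 1.8. Klf5 at -1.86 and Dppa3 at 2.05 are the ends of the list, and Nanog lies on the opposite side of 0 from Pou5f1.

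Among the RefSeq promoter windows, which cover 250 bases before to 50 after a start site (GRCm38.p6), the composite OCT-SOX element was searched on both strands. It occurred in 4 of 32851 windows (0.0122%), and Nanog was the only one of the 19 pluripotency genes with a window to hold it. The Nanog window is shown because it holds these letters in a gene that did not fall with Pou5f1 (chr6:122707239-122707538, plus strand, capitals mark the element, 74 to 62 bases before the start):
Nanog: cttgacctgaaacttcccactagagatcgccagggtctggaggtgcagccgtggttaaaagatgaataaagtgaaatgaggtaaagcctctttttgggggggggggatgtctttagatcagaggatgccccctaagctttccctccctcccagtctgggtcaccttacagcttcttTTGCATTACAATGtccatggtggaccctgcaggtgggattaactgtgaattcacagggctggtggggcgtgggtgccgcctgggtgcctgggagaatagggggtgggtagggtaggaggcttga

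Post-implantation epiblast genes went down rather than up. Of 14 genes, 7 were downregulated and none upregulated, with a median of -0.82. Dnmt3b, the de novo DNA methyltransferase of the epiblast, had 141, 129 and 127 TPM at Day 0 and 16.0, 15.0 and 16.4 TPM at Day 4, and fell by 2.99 on the log2 scale (SE 0.09). Foxd3 (-2.23) and Pou3f1 (-2.01), transcription factors of the formative state, fell too. Fgf5, its usual marker, was low on both days (1.24 to 1.89 TPM and 1.15 to 1.28 TPM) and did not pass the test (-0.15, adjusted p = 0.26).

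The largest falls of the lists were in FGF/ERK feedback. Spry4, a Sprouty inhibitor that ERK activity induces, had 54.6, 44.4 and 43.6 TPM at Day 0 and 2.13, 2.08 and 1.91 TPM at Day 4, a fall by 3.99 on the log2 scale (SE 0.10, adjusted p = 5.6e-17). Etv4, an ETS factor downstream of FGF receptors, had 64.6, 60.6 and 60.7 TPM and then 3.06, 3.49 and 3.61 TPM (-3.85). Neither gene had overlapping days. Of the 25 genes of the pathway, 9 were downregulated, none upregulated, and the median was -0.57.

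The ligands and other readouts of the pathway fell as well. Fgf17 (-2.52) and Fgf15 (-2.08), secreted FGFs, and Egr1, an immediate early gene of ERK signalling (-2.09), each lost most of their level, and Fgf15 ended at 0.973, 1.08 and 1.25 TPM. Spry2 fell by 1.44 on the log2 scale. Fgf4, the main ligand of mESCs, went from 65.4, 62.9 and 59.1 TPM to 33.8, 32.8 and 33.8 TPM (-0.88), and Etv5 changed by -0.97. The calls of Fgf4 and Etv5 were lost after the median of ratios scaling, and that of Fgf4 without Day 0 replicate 1 (-0.85).

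Genes of LIF signalling included several falls. Of 17 genes of the LIF and Stat3 pathway, 6 were downregulated and 1 upregulated (median -0.56). Myc, a STAT3 target in mESCs, had 37.5, 35.3 and 36.5 TPM at Day 0 and 4.39, 4.16 and 3.97 TPM at Day 4 (-2.86, SE 0.07, adjusted p = 4.5e-17). Bcl3 (-2.18), Gbx2 (-1.48), the feedback inhibitor Socs3 (-1.34) and Stat3 (-1.16) fell, while Jak2, the kinase, rose from 2.68 to 3.15 TPM to 6.63 to 7.50 TPM (1.05). In the Myc and Lin28 list 7 of 21 genes were downregulated and 1 upregulated. It includes Mycn, the second MYC gene of mESCs, which had 125, 118 and 115 TPM at Day 0 and 33.5, 40.4 and 35.6 TPM at Day 4 (-1.69).

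**Figure D3:**
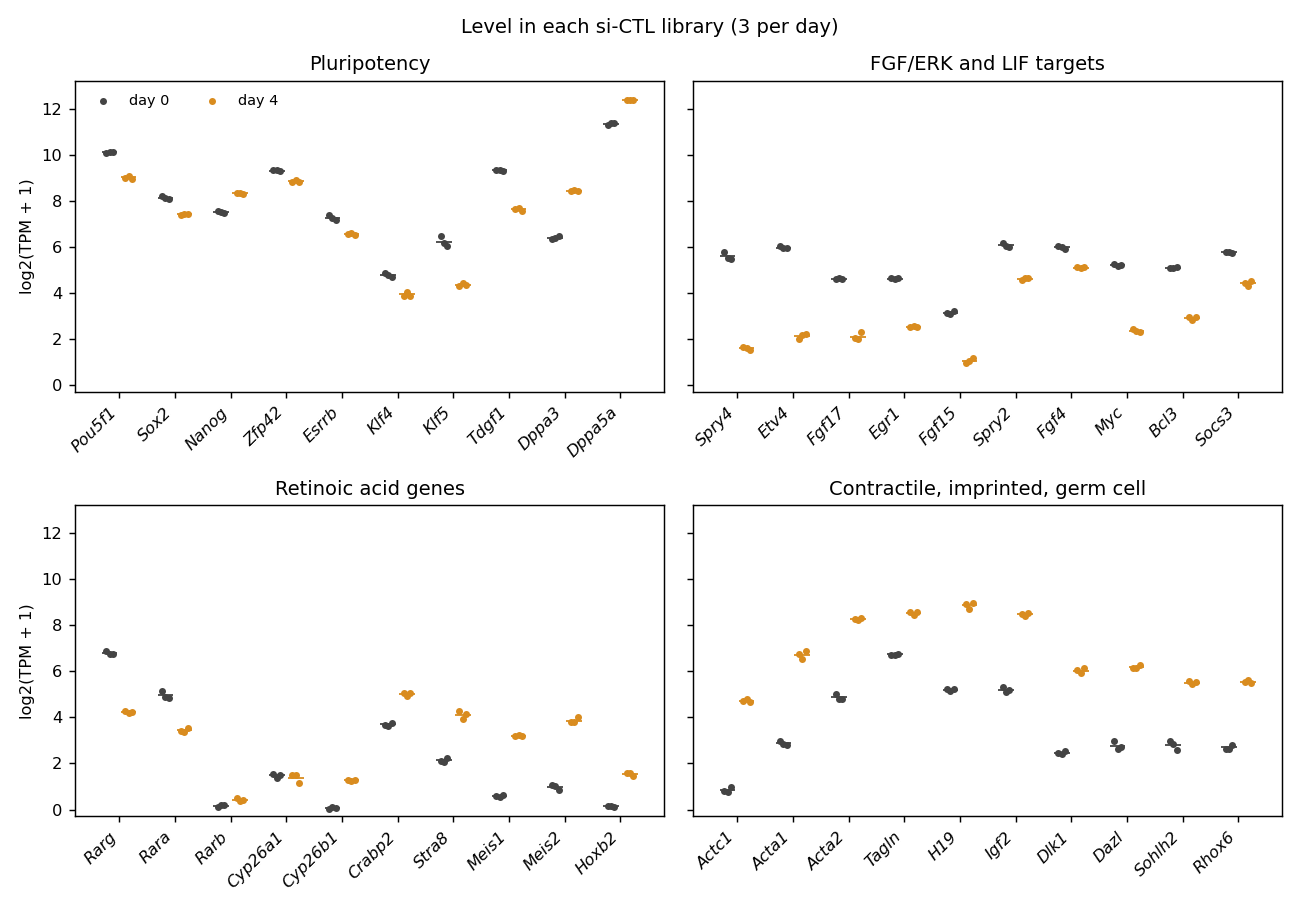
Level of 40 genes (x axis) in each of the 3 Day 0 (grey) and 3 Day 4 (orange) si-CTL libraries, as log2(TPM + 1) on the y axis. Points are libraries and short lines are means. Spry4 and Etv4 drop from about the level of Spry2 to near 2, Rarb and Cyp26a1 stay low on both days, and Acta1, H19 and Dazl rise with the 3 libraries of a day close together.

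The RA genes moved in both directions. Of 19 tested genes of RA receptors and metabolism, 5 were upregulated and 4 downregulated. At Day 0 alone 5 of the 19 lay under the filter on low values. Among the receptors, Rarg, the most abundant RAR of these cells, had 115, 108 and 106 TPM at Day 0 and 18.4, 17.5 and 17.6 TPM at Day 4, a fall by 2.56 on the log2 scale (SE 0.05, adjusted p = 3.3e-18). Rara fell by 1.53, from 27.7 to 34.4 TPM to 9.26 to 10.7 TPM. Rxrg (-1.07) and Aldh1a3, an enzyme that makes RA (-1.06), fell from low levels. The related Aldh1a1 (0.635) and Aldh1a2 (0.045) were not called.

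The RA-binding proteins and 2 of the degrading enzymes rose. Crabp1 went from 31.5, 33.5 and 35.1 TPM to 79.0, 69.4 and 77.1 TPM (1.15), and Crabp2, which hands RA to its receptors, from 11.9, 11.4 and 12.7 TPM to 31.9, 29.7 and 32.2 TPM (1.31). Cyp26b1 (1.22) and Cyp26c1 (1.13) rose from at most 0.157 TPM to 1.21 to 1.52 TPM. Rbp4, the plasma carrier of retinol, rose by 1.07.

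The genes most often used as sensors of RA did not pass the test. Cyp26a1 had 1.92, 1.59 and 1.87 TPM at Day 0 and 1.83, 1.85 and 1.22 TPM at Day 4, with overlapping days (-0.09, SE 0.12, adjusted p = 0.51). Rarb had 0.0758, 0.137 and 0.139 TPM and then 0.421, 0.309 and 0.315 TPM (0.27, SE 0.09, adjusted p = 0.016), separate but far below 1 TPM. Stra6, the retinol transporter, likewise stayed below 1 TPM in every library (0.34). Adding 1 to the TPM compresses such low values: with 0.1 added, Rarb (1.05) and Stra6 (1.00) were called and Cyp26a1 was not. Without Day 4 replicate 3 the sign of Cyp26a1 turned (0.03). Both Cyp26a1 and Rarb carry the DR5 element of the RAR and RXR pair in their promoter windows. The search took the half-sites GGTCA or GTTCA, repeated with 6 bases between, on both strands, and found it in 81 of 32851 windows (0.247%). Of the 12 direct target genes with a window these were the only members with it. Over all symbols with the element, 22 were tested, of which 1 was upregulated (4.55%, against 6.77% of all genes) and 3 downregulated (13.6%, against 8.24%). The windows are given because they hold the element beside a transcript that did not pass the test: Rarb at chr14:16575427-16575726, minus strand, with the element 52 to 37 bases before the start, and Cyp26a1 at chr19:37697558-37697857, plus strand, 32 to 17 bases before it (capitals):
Rarb: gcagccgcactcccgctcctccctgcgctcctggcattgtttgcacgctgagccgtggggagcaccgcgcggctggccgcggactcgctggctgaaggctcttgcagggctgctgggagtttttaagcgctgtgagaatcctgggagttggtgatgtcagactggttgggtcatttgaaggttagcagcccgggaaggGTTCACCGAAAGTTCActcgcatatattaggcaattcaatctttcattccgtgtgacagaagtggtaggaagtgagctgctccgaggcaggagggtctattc
Cyp26a1: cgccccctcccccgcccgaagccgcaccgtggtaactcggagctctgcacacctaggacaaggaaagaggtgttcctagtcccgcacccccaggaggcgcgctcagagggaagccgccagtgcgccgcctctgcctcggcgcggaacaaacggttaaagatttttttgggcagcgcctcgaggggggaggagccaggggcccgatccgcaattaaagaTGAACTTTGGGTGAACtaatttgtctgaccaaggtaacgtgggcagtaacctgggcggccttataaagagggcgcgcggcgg

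Other direct targets differed between the days. Of 22 tested genes of this list, 8 were upregulated and 2 downregulated (median 0.40). At Day 0 alone 5 of the 22 lay under the filter on low values and had little room to fall. Meis2 and Meis1, TALE homeobox partners of HOX proteins, had the largest rises, Meis2 from 1.11, 1.01 and 0.812 TPM to 13.1, 12.8 and 15.0 TPM (2.89, SE 0.09) and Meis1 from 0.488, 0.455 and 0.573 TPM to 8.04, 8.45 and 8.20 TPM (2.62). Stra8, the RA-induced gatekeeper of meiosis, rose from 3.35, 3.17 and 3.77 TPM to 18.1, 14.3 and 16.7 TPM (1.97). The downregulated members were Ccnd1, cyclin D1, from 68.9, 66.2 and 62.5 TPM to 11.6, 11.7 and 11.6 TPM (-2.40), and Skil, a co-repressor of SMAD proteins (-1.09).

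Hox genes, which pattern the body axis and open from their 3' end under RA, were barely transcribed. Of 39 genes, 10 passed the filter on low values and 34 were below 1 TPM in all 6 libraries. Of the 10 tested, 5 were upregulated, among them Hoxb2 (1.42), Hoxd8 (0.97), Hoxb4 (0.92) and Hoxa3 (0.86), and none was downregulated. At Day 0 alone 7 of the 10 lay under that filter, with little room to fall. The call of Hoxa3 was lost without replicate 1 of either day or Day 0 replicate 3 (0.83 to 0.84). Hoxb2 had 0.113, 0.131 and 0.0776 TPM at Day 0 and 2.04, 2.05 and 1.79 TPM at Day 4, with no overlap. Hoxb1 had at most 0.375 TPM in any library and was not tested.

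Markers of the germ layers moved in both directions. Of 27 neural and ectoderm genes, 18 were tested, 5 were upregulated and 4 downregulated. At Day 0 alone 2 of the 18 lay under the filter on low values. The upregulated ones were the Meis genes, Crabp2, and the nuclear receptors Nr2f1 (0 to 0.0782 TPM at Day 0, 3.67 to 4.86 TPM at Day 4, 2.29) and Nr2f2 (1.93). Genes of neurons fell: Tubb3, a neuronal tubulin, went from 66.4, 65.7 and 65.3 TPM to 16.1, 16.3 and 14.9 TPM (-1.99), and Neurod1 (-1.58), Map2 (-1.18) and Stmn2 (-0.97, lost after the scaling) fell from their Day 0 levels. Pax6 (0.20) and Nes (-0.82), markers of neural progenitors, were not called, but Nes was without Day 4 replicate 3 or Day 0 replicate 2 or 3 (-0.87 to -0.88). Of the 27 genes 10 were below 1 TPM in every library.

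Of 19 tested genes of extraembryonic and primitive endoderm (25 in the list), 8 were upregulated and none downregulated, with a median of 0.68. At Day 0 alone 6 of the 19 lay under the filter on low values and had little room to fall, which favours rises in both figures. The defining factors stayed low: Gata6 reached 1.58, 1.24 and 1.16 TPM from at most 0.355 TPM (0.88, called), Gata4 1.44, 1.77 and 1.04 TPM from at most 0.661 TPM (0.69, not called) and Sox17 1.11, 1.03 and 0.786 TPM from at most 0.254 TPM (0.75, not called). Gata6 lost its call without replicate 1 of either day (0.80 and 0.83), and with 0.1 added to the TPM Gata4 (1.34) and Sox17 (2.06) were called. Dab2, an endocytic adaptor (1.48), Cubn, its cargo receptor (1.46), and Col4a2, a basement membrane collagen (1.28), had the largest rises. The summed TPM of the 25 genes was 842 to 879 at Day 0 and 997 to 1048 at Day 4, most of it Apoe, which did not pass the test (-0.07).

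Primitive streak and mesoderm genes had 3 downregulated and no upregulated members among 16 tested. T (Brachyury), the streak factor, had 12.9, 13.5 and 12.1 TPM at Day 0 and 0.724, 0.242 and 0.446 TPM at Day 4 (-3.25, SE 0.15). Nodal, the ligand that maintains streak genes, fell by 1.02 on the log2 scale and Mixl1 by 1.12, whereas Eomes lay between 1.77 and 2.48 TPM in all libraries (0.06). In the trophoblast list 2 of 10 tested genes rose, Krt7 (2.27) and Gata3 (1.12), while Cdx2, the lineage factor, went from 0.73 to 1.08 TPM to at most 0.182 TPM (-0.75, not called). In the blood and endothelium list the only call was Cd34, a progenitor antigen (-0.97).

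Contractile genes held the largest rises of the lists. Of 27 tested genes of contractile actin and smooth muscle, 11 were upregulated and none downregulated (median 0.68). At Day 0 alone 3 of the 27 lay under the filter on low values. Actc1, cardiac actin, had 0.763, 0.711 and 0.954 TPM at Day 0 and 25.2, 26.9 and 24.8 TPM at Day 4 (3.88, SE 0.12, adjusted p = 5.9e-16). Acta1, skeletal actin, went from 6.80, 6.15 and 6.04 TPM to 107, 92.8 and 116 TPM (3.85), and Acta2, smooth muscle actin, from 31.2, 26.6 and 27.1 TPM to 308, 298 and 313 TPM (3.40). The days of the actins were far apart. Their coding sequences are nearly alike, so reads could be shared between them by the estimation of transcript levels.

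Further members of the contractile group were Myl9, a regulatory myosin light chain (2.23), Des, desmin (2.00), Tagln, transgelin, from 103, 105 and 108 TPM to 379.9, 348 and 382 TPM (1.8), and Tpm1 (1.26). Srf, the factor that binds the CArG box of these genes, was not called (-0.38). The CArG box, searched as CC, then 6 bases of A or T, then GG, was in 535 of 32851 windows (1.63%) and in 6 of the 23 contractile genes with a window: Acta1, Actc1, Myl9, Cnn2, Vcl and Srf. The first 3 were upregulated, and Cnn2 (0.68) and Vcl (-0.26) were not called. Over all symbols with the box, 182 were tested with 18 upregulated (9.89%, against 6.77% of all genes) and 13 downregulated (7.14%, against 8.24%). The windows of the upregulated members are shown with the box in capitals: Acta1 at chr8:123894726-123895025, minus strand, 73 to 64 bases before the start, Actc1 at chr2:114052826-114053125, minus strand, 47 to 38 bases before it, and Myl9 at chr2:156775214-156775513, plus strand, 161 to 152 bases before it:
Acta1: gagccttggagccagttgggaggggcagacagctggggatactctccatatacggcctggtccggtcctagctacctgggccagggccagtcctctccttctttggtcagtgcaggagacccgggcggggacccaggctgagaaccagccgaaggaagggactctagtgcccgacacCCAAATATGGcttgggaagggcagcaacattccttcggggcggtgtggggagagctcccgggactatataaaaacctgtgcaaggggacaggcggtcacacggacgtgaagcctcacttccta
Actc1: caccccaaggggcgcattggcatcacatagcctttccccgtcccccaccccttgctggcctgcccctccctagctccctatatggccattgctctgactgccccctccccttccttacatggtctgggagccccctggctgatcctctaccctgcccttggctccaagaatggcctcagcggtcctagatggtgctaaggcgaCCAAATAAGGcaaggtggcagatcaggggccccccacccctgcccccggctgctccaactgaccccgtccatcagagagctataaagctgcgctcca
Myl9: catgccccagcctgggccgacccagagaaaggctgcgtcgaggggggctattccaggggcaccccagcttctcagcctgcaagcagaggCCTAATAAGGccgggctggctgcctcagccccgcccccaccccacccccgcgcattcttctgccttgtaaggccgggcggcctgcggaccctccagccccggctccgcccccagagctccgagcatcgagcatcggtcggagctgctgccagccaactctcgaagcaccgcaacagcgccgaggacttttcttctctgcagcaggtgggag

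Matrix and mesenchymal genes rose beside the contractile ones. In the list of collagens, laminins and matrix 12 of 34 tested genes were upregulated and none downregulated (median 0.64). In the fibroblast and mesenchyme list 8 of 24 were upregulated and 1 downregulated. At Day 0 alone 1 of the 34 and 3 of the 24 lay under the filter on low values, with little room to fall. Large rises were those of Postn, a matricellular protein of the fibroblast list (1.21 to 1.33 TPM, then 14.1 to 15.8 TPM, 2.83), and Col12a1 of the matrix list (2.31). Col3a1 (2.53) and Col1a2 (1.96), which are in both lists, rose as well. The collagen-processing proteins P4ha1 (1.92) and Serpinh1 (1.38) rose as well. Col1a1 differed by 0.73 and was called after the scaling or without Day 0 replicate 1 (0.87), and Thy1, a fibroblast surface antigen, fell by 1.44 on the log2 scale. The summed TPM of the 25 fibroblast markers was 419 to 477 at Day 0 and 608 to 641 at Day 4, 4 of them were below 1 TPM in every library, and the part of such cells in the contractile and matrix rises was not tested.

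The adhesion list had 4 downregulated and 2 upregulated genes among 26 (4 and 4 after the scaling), with a median of 0.03. Over all genes tested, 8.24% were downregulated and 6.77% upregulated. Cdh1, E-cadherin, had 233, 198 and 193 TPM at Day 0 and 78.2, 76.7 and 83.4 TPM at Day 4 (-1.37, SE 0.11). Esrp1, a splicing regulator of epithelial cells, fell by 1.32. Zeb1 (1.11) and Snai2 (0.86), repressors of E-cadherin, rose to 4.68 to 6.04 TPM and 1.97 to 2.35 TPM, with the call of Snai2 lost without replicate 1 or 3 of either day (0.83 to 0.84). Cdh2, N-cadherin, was not called (-0.46), at 6.58 to 8.71 TPM and then 5.04 to 5.11 TPM.

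Imprinted genes, transcribed from one parental copy, divided into opposite directions. Of 29 tested, 8 were upregulated and 6 downregulated. H19, a long non-coding RNA, had 36.5, 34.6 and 36.8 TPM at Day 0 and 484, 419 and 499.8 TPM at Day 4 (3.66, SE 0.07, adjusted p = 8.8e-19). Its neighbour Igf2, a fetal growth factor, moved beside it, from 38.6, 33.3 and 36.0 TPM to 358, 338 and 369.8 TPM (3.27). Dlk1, a Notch-like transmembrane protein, rose from 4.53, 4.25 and 4.89 TPM to 65.5, 59.2 and 68.9 TPM (3.56), whereas the non-coding RNAs Rian (-1.03, called) and Meg3 (-0.36, not called) of the same domain were lower. Peg3 rose by 1.75. Zdbf2 (-1.91) and Phlda2, a placental growth inhibitor (-1.74), fell.

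Germ cell and meiosis genes went one way. Of 27 genes, 14 were upregulated and none downregulated (median 0.85). At Day 0 alone 2 of the 27 lay under the filter on low values and had little room to fall. Dazl, an RNA-binding protein of germ cells, had 6.99, 5.14 and 5.48 TPM at Day 0 and 68.7, 69.0 and 75.9 TPM at Day 4 (3.40, SE 0.10). Rhox6 (2.85) and Rhox9 (2.80), homeobox genes of the X-linked cluster that share sequence, rose to 44.2 to 48.0 TPM and 40.7 to 47.6 TPM, and Sohlh2, a germline factor, to 42.9 to 46.5 TPM (2.72). Ddx4, the vasa helicase, had 9.60 to 10.4 TPM and then 12.7 to 14.4 TPM and was not called (0.40). Of 9 tested genes of 2-cell-like cells, 5 were upregulated, among them Zscan4f (1.44) at 21.0 to 23.8 TPM. Of these 9, 2 lay under that filter at Day 0 alone. The Zscan4 copies are nearly identical, so their separate values are uncertain.

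Genes of DNA methylation were mostly downregulated. Of 16 genes, 10 were downregulated and 1 upregulated, with the lowest median of the 29 lists (-1.02, and -0.89 after the scaling). Besides Dnmt3b these included Dnmt3a, the second de novo enzyme (-1.93), its cofactor Dnmt3l (-1.13), the maintenance enzyme Dnmt1, from 87.5, 76.7 and 73.9 TPM to 38.5, 38 and 40.2 TPM (-1.01), and its partner Uhrf1 (-1.12). Tet1 and Tet2 (-1.33), which oxidise methylcytosine, fell as well, so writers and erasers were both lower. Gadd45b rose by 0.99.

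Polycomb subunits silence genes through histone H2A and H3 marks. Of 32 members, 9 were downregulated and 2 upregulated (5 and 4 after the scaling), against 8.24% and 6.77% of all genes tested. Their median of -0.10 was that of all genes. The downregulated ones with the largest changes were Epop, an mESC-specific accessory subunit, from 220.1, 216 and 203 TPM to 42.9, 41.5 and 42.4 TPM (-2.31), Phc1 (-2.06) and Jarid2 (-1.62). Of the core subunits, Eed fell by 0.98 and Ezh2, the catalytic one, was not called (-0.20). Bmi1 rose by 1.25 from 2.37 to 4.66 TPM.

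**Figure D4:**
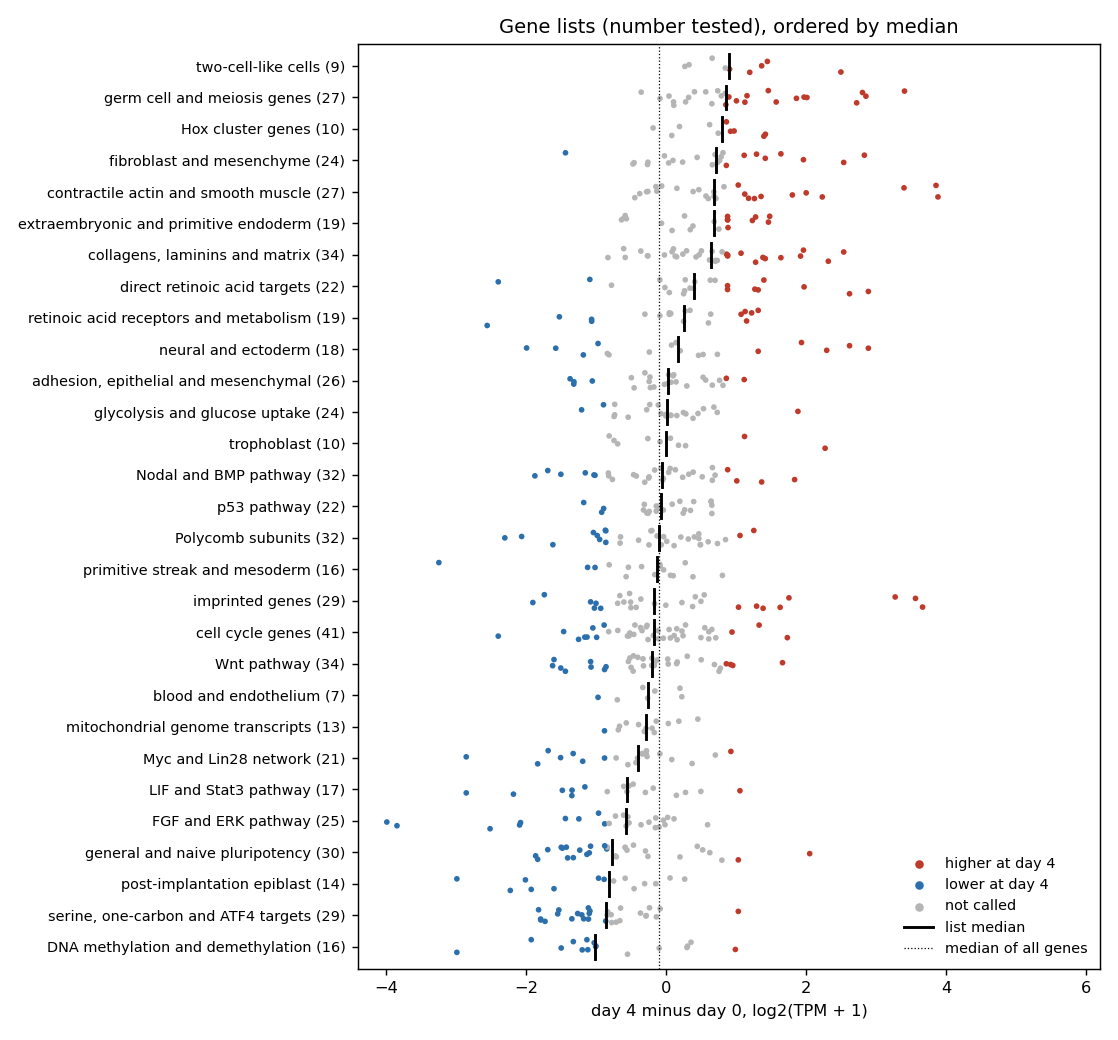
Difference between Day 4 and Day 0 (x axis, log2(TPM + 1)) of each tested gene in the 29 lists (y axis, with the number tested), ordered by the list median. Red and blue points are called genes, black bars are list medians, and the dotted line is the median of all genes at -0.10. DNA methylation genes lie lowest at -1.02, and germ cell genes have no blue point.

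Signalling by Nodal, BMP and Wnt was mixed. Of 32 tested Nodal and BMP genes, 6 were downregulated and 4 upregulated: the Nodal target Lefty1 fell by 1.5 on the log2 scale and Id1, a BMP target, by 1.88, while the BMP antagonist Nog (1.83) and the ligand Bmp7 (1.36) rose. Of 34 tested Wnt genes, 8 were downregulated and 4 upregulated (6 and 5 after the scaling). Notum (-1.62) and Sp5 (-1.51), feedback targets of beta-catenin, fell, and Dkk1, a Wnt antagonist, rose from at most 0.233 TPM to 2.33 to 3.10 TPM (1.66).

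Among 41 cell cycle genes 8 were downregulated and 3 upregulated, against 8.24% and 6.77% of all genes tested. Ccne1, cyclin E1, which is high throughout the cycle of mESCs, had 148, 139.5 and 145 TPM at Day 0 and 53.6, 49.3 and 51.7 TPM at Day 4 (-1.47). Cdkn2b (1.73) and Cdkn2a (1.33), inhibitors of CDK4 and CDK6, rose to 14.8 to 18.1 TPM and 25.6 to 27.4 TPM. Of 22 genes of the p53 pathway 3 were downregulated, including Trp53 itself (-0.89), and none upregulated. The median was -0.08, and after the scaling 1 call was left, without Trp53. Cdkn1a had 42.3 to 45.4 TPM and then 65.2 to 73.2 TPM, short of the threshold (0.65).

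Serine, one-carbon and amino acid genes under ATF4, the factor of the amino acid response, had 15 downregulated and 1 upregulated member of 29 tested (median -0.86). Cth (-1.82), Trib3 (-1.79), Chac1 (-1.79) and the leucine transporter Slc7a5 (-1.73) fell most. In Trib3 and Chac1 Day 4 replicate 2 stood above the others, with 10.5 TPM against 6.48 and 6.26 TPM for Trib3 and 9.36 TPM against 5.45 and 4.74 TPM for Chac1. Asns, asparagine synthetase, went the other way, from 199.8, 187 and 181 TPM to 360.0, 432 and 372 TPM (1.03), and was highest in the same library. Tdh, the threonine dehydrogenase on which mESCs rely, fell by 1.11. Atf4 fell by 0.86 on the log2 scale, a call lost after the scaling or without Day 4 replicate 1 (-0.82) or 3 (-0.77). Of 24 glycolysis genes 21 were not called (median 0.01), while 15.0% of all genes tested were called. Ldhb rose from 165, 169.7 and 168 TPM to 648, 602 and 609.9 TPM (1.88). Hk2, a hexokinase, fell by 1.21, and 1 other was downregulated. After the scaling 2 glycolysis genes were upregulated and 1 downregulated.

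Outside these lists, the rule for the largest changes added Ly6a (Sca-1), a surface antigen, from 4.40, 4.21 and 5.21 TPM to 79.2, 71.4 and 69.6 TPM (3.73), Aspa, aspartoacylase (3.59), Bgn, biglycan of the matrix (3.44), and C78283 (3.21). It also added Rpl15-ps3, a pseudogene with 0, 60.7 and 0 TPM at Day 0 and 185, 159.8 and 75.9 TPM at Day 4, which shares sequence with its parent gene, lost its call without Day 0 replicate 1 or 3 (4.07) and is uncertain. Among the falls were Sprr2a2, of the small proline-rich proteins, from 27.9, 25.6 and 27.9 TPM to 0.590, 1.62 and 1.17 TPM (-3.75), Pim2, a survival kinase (-3.29), Pla2g1b, a secreted phospholipase, from 146, 162 and 160.3 TPM to 18.5, 18.3 and 18.6 TPM (-3.01), Pmel (-2.85), Bcl6b (-2.84), Accsl (-2.75) and Trh, the precursor of thyrotropin-releasing hormone, from 364, 359.6 and 376 TPM to 57.1, 62.6 and 51.9 TPM (-2.66). In all, 21 genes were below 1 TPM in every Day 0 library and at 5 TPM or more in every Day 4 library, and 10 did the reverse.

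The same differentiation was measured in separate control libraries labelled RESCUE, 3 per day. These had received doxycycline, which induces ectopic Rsl24d1, so doxycycline and ectopic Rsl24d1 cannot be told apart in them. Rsl24d1 was at 147 to 158 TPM at Day 0 and 114 to 126 TPM at Day 4 in these libraries. There 2559 genes were called (15.6%), 1767 upregulated and 792 downregulated, and the median of all genes was 0.12. After the median of ratios scaling 1364 were upregulated and 1072 downregulated. Of the 2469 genes called without doxycycline, 1611 were also called in the same direction (65.2% of these and 63.0% of those called with doxycycline), and 98.7% had the same sign, against 74.8% of all genes tested. The response differed between both kinds of control cells in 392 genes (2.38%), with 360 (2.19%) higher and 32 (0.195%) lower with doxycycline and 86 among the 2469. After the median of ratios scaling the 392 became 87, with 37 higher and 50 lower. Without scaling the number was 158 without Day 0 replicate 1 of the cells without doxycycline, and 603 or 212 without Day 0 replicate 1 or 3 of those with it.

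Of the 160 named genes tested, 8 differed in response between both kinds of control cells, and none of these after the scaling. Spry4 changed by -3.99 without and by -3.36 with doxycycline, Pou5f1 by -1.10 and -1.19, Nanog by 0.79 and 1.03 (the latter called), Acta1 by 3.85 and 4.03, H19 by 3.66 and 3.72 and Dazl by 3.40 and 3.78. Cyp26a1 at -0.06 and Rarb at 0.38 were not called with doxycycline either. Dppa5a changed by 1.03 without doxycycline and by 0.705 with it, the latter short of the fold threshold. Among the 8 were Tet1 and Tet2, with -0.45 and -0.36 with doxycycline against -1.5 and -1.33 without it. Of the lists, DNA methylation had 4 downregulated genes with doxycycline (median -0.53) where it had 10 without it, general and naive pluripotency 8 (median -0.44) where it had 14, and Polycomb 4 where it had 9. In the p53 list 2 genes were upregulated and none downregulated, and in the adhesion list 7 and 2. The serine, one-carbon and ATF4 list was close, with 14 downregulated genes (median -0.84) beside 15. Over all genes tested, 4.82% were downregulated with doxycycline against 8.24% without it, and 10.7% against 6.77% upregulated. The median of all genes was 0.12 with doxycycline and -0.10 without it. These list values are without the scaling, and the difference between the responses was not tested by list.

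**Figure D5:**
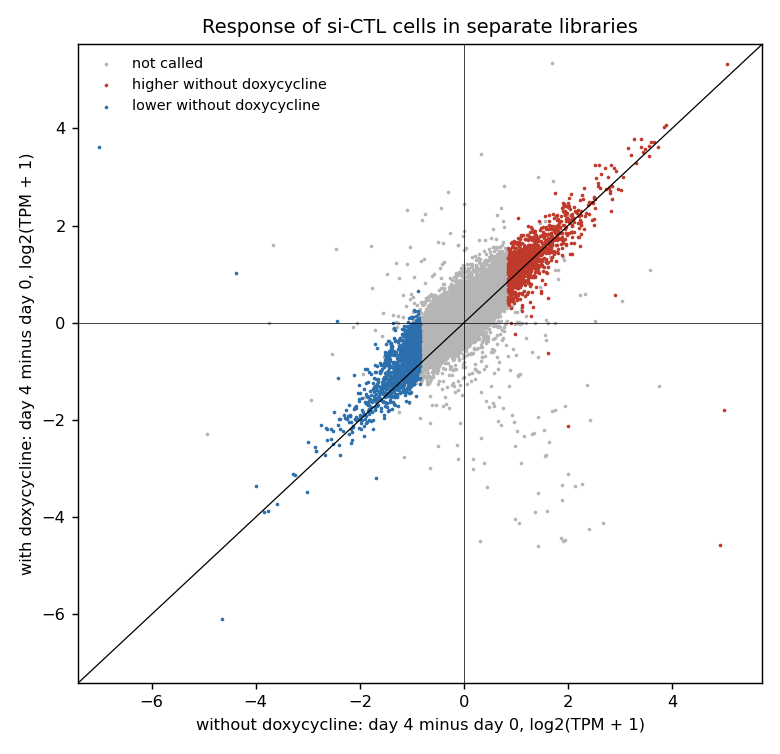
Difference between Day 4 and Day 0, as log2(TPM + 1), in si-CTL cells without (x axis) and with doxycycline (y axis) for the 16447 genes tested, in libraries that are not shared. Colours give the call without doxycycline and the line marks equal change. Most red and blue points lie in the quadrants of equal sign, and 98.7% of called genes do in all.

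In si-Rsl24d1 cells without rescue, 2327 genes were called and 1253 of the 2469 were called in the same direction, 50.7% of these and 53.8% of those. The response differed from that of si-CTL cells in 922 genes (5.61%), with 477 higher (2.9%) and 445 lower (2.71%) in si-Rsl24d1 cells and 336 of them among the 2469. After the median of ratios scaling 281 were higher and 576 lower. The contractile and matrix genes Actc1 (6.08 against 3.88), Acta2 (4.82 against 3.40) and Col3a1 (4.73 against 2.53) rose more there and Spry4 (-2.56 against -3.99), Myc (-1.39 against -2.86) and Dnmt3b (-1.87 against -2.99) fell less, each a difference that passed both thresholds (adjusted p = 5.3e-09 for Acta2 and 1.6e-09 for Myc). The test of the difference does not tell at which day the si-Rsl24d1 and si-CTL cells differed. Rsl24d1 was near the control level again at Day 4, and its part in these differences at either day was not tested.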

How the data were processed

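The authors deposited one table of log2(TPM + 1) values for 54242 gene symbols in 24 libraries (0 columns without a sample), made with STAR 2.7.8a and Salmon 1.4.0 per the submitters' processing notes. These list the human build GRCh38, whereas the symbols are mouse ones and the study's methods give GRCm38, protein-coding transcripts and other versions. As read counts were not used here, no count model was run. Symbols were placed on gencode vM21 (GRCm38). Limma 3.58.1 (R 4.3.3) was fitted with a mean for each of the 8 groups over the deposited log2 values, with an intensity trend in the variances and Benjamini-Hochberg adjustment over all 16447 genes whose mean log2 value over all libraries was at least 0.5. Standard errors and adjusted p-values come from this fit; folds are on the log2(TPM + 1) scale, which understates low genes. With 3 libraries against 3, an exact permutation test of a single value cannot go below p = 0.1, so shares of TPM were given without one. Genes with a mean log2 value under 0.5 at Day 0 passed the filter through other groups and had little room to fall. Gene lists and members were chosen with earlier results of these data known. Named were list genes, up to 4 in each direction with the largest change and defining genes such as Pou5f1, Nanog, Cyp26a1 and Rarb, and up to 12 further genes in each direction by largest change, at 5 TPM or more on the higher day with separate days and leaving out Gm and Rik symbols, plus the 10 largest gains and losses in TPM, except some genes that are not reported here. Promoters and motifs were read from RefSeq windows. P-values measure the spread between these samples only. Alternatives were another pseudocount, filter, scaling and threshold, only the compared groups, a replicate block and leaving out each library.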

Additional observations from a re-analysis of the deposited data

Results flagged for a closer look

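With 3 libraries per group no library was tested as an outlier. The RA response of 8 of the 160 named genes differed between si-CTL cells with and without doxycycline. The call used limma's test of the difference itself and a fold above 1.8. Doxycycline and the ectopic Rsl24d1 that it induces cannot be told apart here. All 8 differences were positive, with doxycycline minus without: Tet1 1.06, Tet2 0.97, Zdbf2 0.95, Peg3 0.92, Klf5 0.91, Skil 0.90, Col1a1 0.87 and Vcl 0.86. After the median of ratios scaling 0 of these 8 were called, and without Day 0 replicate 1 of the cells without doxycycline 1 was called (Tet1, 0.87).

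The response of 50 named genes differed with si-Rsl24d1 (no rescue) from that with si-CTL, 40 upwards and 10 downwards (si-Rsl24d1 minus si-CTL). Such a difference can lie at either day. The contractile, matrix and mesodermal group held Actc1 (2.20), Col3a1 (2.20), Col1a1 (2.05), Postn (1.55), Acta2 (1.42), Col12a1 (1.32), Myl9 (1.21), Vcl (1.01) and T (0.91). The amino acid response held Chac1 (3.03), Trib3 (1.51), Slc7a5 (1.25) and Atf4 (1.00). FGF, LIF and Myc genes were Myc (1.47), Spry4 (1.43), Fgf17 (1.27), Bcl3 (1.15), Egr1 (0.92) and Etv4 (0.87). Pluripotency and chromatin genes were Tet2 (1.35), Esrrb (1.24), Klf5 (1.20), Epop (1.16), Dnmt3b (1.13), Zfp42 (1.03), Lin28a (0.98) and Klf4 (0.85). Imprinted genes were Dlk1 (1.15), Igf2 (1.11), Phlda2 (1.09), Zdbf2 (1.03) and H19 (0.92). Others upwards were Accsl (1.97), Rsl24d1 itself (1.91), Pmel (1.41), Sprr2a2 (1.18), Notum (1.15), Cubn (1.06), Meis2 (0.96) and Nr2f1 (0.88). Downwards were Neurod1 (-2.45), Bmp7 (-1.33), Ly6a (-1.15), Dazl (-1.06), Cdkn1a (-0.97), Pou3f1 (-0.97), Aspa (-0.93), Fgf5 (-0.93), Nodal (-0.89) and C78283 (-0.88). Of the 50, 43 were called after the scaling and 48 without Day 0 replicate 1 of the si-CTL cells.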

How the results depend on the processing

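Of 2220 values of the 160 named genes under the alternatives, 2144 kept their direction and side of the threshold, 38 lost the call, 35 gained it and 3 turned sign: Apoe after the scaling (0.07), Cyp26a1 without Day 4 replicate 3 (-0.15 to 0.03 over the libraries left out) and Eomes without Day 0 replicate 2 (-0.04 to 0.13). With 0.1 in place of 1 added to the TPM the calls numbered 3796 for si-CTL cells, 3884 with doxycycline, 747 for the difference between both and 1452 for that between si-Rsl24d1 and si-CTL. Without a fold threshold they were 10010, 9732, 4866 and 5082. With 2 added they were 1776, 1814, 235 and 628. Median of ratios scaling gave 2366, 2436, 87 and 857. A filter at a mean of 1.5 left 2003 calls for si-CTL cells, and no filter 2462. Leaving out 1 library gave 2337 to 2581, 2485 to 2640, 158 to 603 and 864 to 1130 calls. Replicate numbers did not pair the samples (correlations of deviations -0.0946, 0.0325 and -0.0745), and the fit with a replicate block gave 2467, 2553, 385 and 921 calls and changed no named call. The causes were not tested. Read depth is unknown, so that values below about 1 TPM have no stated counting error.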

Other observations

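Cytosolic ribosomal protein genes took a larger part of the transcripts at Day 4. The 80 protein-coding Rpl and Rps genes held 14.9, 15.9 and 16.3% of TPM at Day 0 and 20.6, 20.7 and 20.0% at Day 4, and their median difference was 0.34 against -0.10 for all genes. Of the 80, 2 were called upregulated, Rpl39l (2.30), a paralog of Rpl39, and Rpl17 (0.85), and none was called downregulated. This group was chosen after its values were seen. Rpl23a (5135 to 5749 TPM, then 7892 to 8467 TPM) and Rpl26 were among the largest gains, and the elongation factor Eef1a1 went from 10690 to 10945 TPM to 12569.9 to 13001 TPM without a call (0.23). Eif5a, another translation factor, fell from 2337 to 2412 TPM to 1062 to 1137 TPM (-1.10), and the nucleolar protein Npm1 (-0.30) and Ptma (-0.56) lost much TPM without a call.

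Transcripts of the mitochondrial genome held 7.18% ± 0.31 of TPM at Day 0 and 6.57% ± 0.19 at Day 4 (SD, n = 3), but did not move together. mt-Nd1 (-0.69), mt-Cytb (-0.67) and mt-Nd4 (-0.57) were lower and mt-Co1 higher (0.18), none of them called. Of the 13 transcripts (median -0.29), mt-Nd6, read from the opposite strand, was the only one called (-0.88), and not after the scaling. In control cells with doxycycline the median of the 13 was 0.25, against 0.12 for all genes, and none was called. There mt-Nd1 changed by -0.40, mt-Cytb by -0.14, mt-Nd4 by 0.27 and mt-Co1 by 0.78. mt-Co2 had 11540, 11570 and 3883 TPM at Day 0 and 8356, 8943 and 3812 TPM at Day 4, so that replicate 3 of each day stood apart. The pseudogenes Gm28437 (0.64, not called) and Gm29216 (1.22, called) gained TPM. The ferritin pseudogenes Ftl1-ps1 (-0.52) and Ftl2-ps (-0.55) lost TPM with no call. n-R5s100, a 5S ribosomal RNA copy, had 1164, 301 and 370 TPM at Day 0 and 317, 2370.2 and 9075 TPM at Day 4, and Mir6236 ranged from 1565 to 5714 TPM and from 934 to 3636 TPM, so both days overlapped.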
